A study of Mus musculus with 22 samples.

Results

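The genes described here encode the enzymes that make phosphatidylcholine and phosphatidylethanolamine, the main phospholipids of cell membranes. They were chosen by name as 9 genes: Chka, Chkb, Etnk1, Etnk2, Pcyt1a, Pcyt2, Chpt1, Cept1 and Pemt. Of these, 8 were measured, by 12 of the 22206 features tested on the array, which name 19505 genes in all. Etnk2 was not analysed here. Pemt has 5 features and is represented by the one of highest mean. Livers came from male mice with a global adiponectin knockout, 3 to 8 months old, which lack a hormone that fat cells secrete. The animals had chow at will and a day of 12 h light and 12 h dark, and were killed every 4 h. Times are zeitgeber times (ZT, hours after lights on): ZT2, ZT6 and ZT10 in the light, ZT14, ZT18 and ZT22 in the dark. ZT6 and ZT18 have 3 arrays each and the other times 4. All 22 livers carry the knockout, and every comparison is between times of day within it, since livers of wild-type mice were not analysed here.

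Hepatocytes make phosphatidylcholine by 2 routes. In the cytidine diphosphate (CDP)-choline route, a kinase phosphorylates choline, a cytidylyl transferase activates the product to CDP-choline, and a phosphotransferase joins it to diacylglycerol; a parallel series of enzymes starts from ethanolamine. In the other route, which is known mainly from liver, phosphatidylethanolamine is methylated 3 times by Pemt. Phosphatidylcholine coats lipoproteins and lipid droplets and is secreted into bile.

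Each array carries RNA of 1 liver, and values are on a log2 scale, so that a difference of 1 is a 2-fold difference. Array medians lay between 5.28 and 5.36 and lower quartiles between 3.67 and 3.91, and the number of arrays limits the precision. The targeted gene, Adipoq, measured between 3.30 and 4.69 with a median of 3.62. Whether its probes lie within the deleted stretch was not tested. Of the hepatocyte markers 5 of 6 were measured, with means from 17.61 to 19.80, and 0 of the 5 were called for a rhythm. Of these means 4 (Alb, Apoa1, Ttr and Serpina1a) lie near the top of the scale, where the highest value is 19.87, and whether signals there are saturated was not tested. Of 27 measured markers of other cell types 2 were called for a rhythm, beside 7.62% of all features. These were Stab2 of sinusoidal endothelium (adjusted p = 0.0353) and S100a9 of neutrophils (adjusted p = 0.0386). Fewer cells of a type and less RNA per cell cannot be told apart in whole liver. The secreted trefoil peptide Tff3 set 5 arrays apart (ZT6b, ZT6c, ZT14b, ZT14d and ZT22a), at 10.35 to 13.63 against 2.31 to 4.73 in the other 17. In all 5, the levels of Chka, Pcyt2 and Etnk1 were above every array of their time that lacked high Tff3, and in 4 the level of Chpt1 was below. Results are therefore also given without these 5 arrays where a call changed.

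A 24 h rhythm, tested as a cosine of that period with limma and Benjamini-Hochberg adjustment over all features, was called at an adjusted p below 0.05 for 4 of the 8 genes, namely Chka, Chkb, Pcyt1a and Chpt1. Among all features 7.62% were called, and among the 11103 features above the median level, where all 8 genes lie, 13.6%. The 8 genes were chosen with earlier results of these data known, so these shares are set beside them as descriptions only. The median amplitude was 0.278 over the 8 genes, 0.156 over all features and 0.184 over the brighter ones. The called genes fell into different parts of the day: Chka peaked late in the dark phase, Pcyt1a and Chpt1 near its middle, and Chkb early in the light phase.

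**Figure D1:**
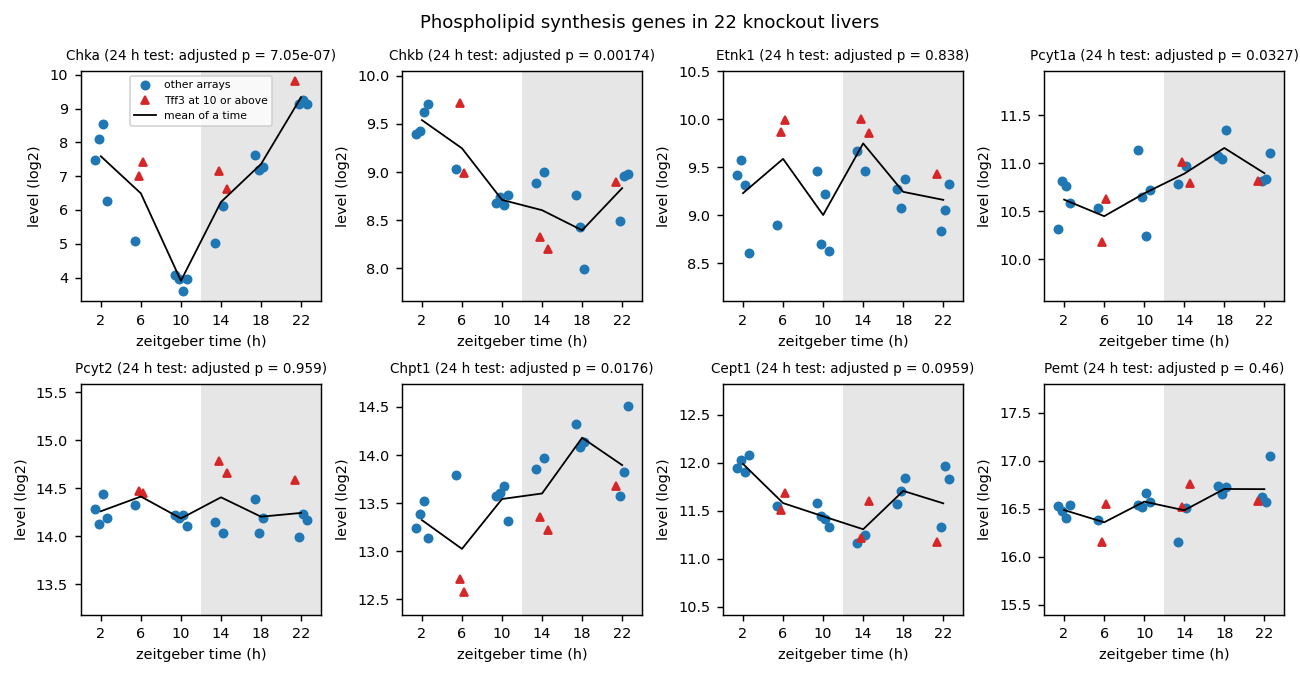
Level (log2) of the 8 genes in each of the 22 livers against zeitgeber time in hours, with the dark phase shaded; points are arrays, red triangles the 5 arrays of high Tff3, and the line joins the means of the times. The Chka axis spans more than the others: its level runs from 3.61 at ZT10 to 9.81 at ZT22, while Pcyt2 stays between 13.99 and 14.78.

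Chka, choline kinase alpha (chromosome 19, 3851585 to 3894369, GRCm38.p6), catalyses the first step of the CDP-choline route. At ZT10 its levels were 4.09, 3.95, 3.61 and 3.97, and at ZT22 they were 9.81, 9.14, 9.26 and 9.12. The lowest array at ZT22 was thus far above the highest at ZT10, and both times stood clear of every neighbour in the order of the means. At ZT2 the levels were 7.47, 8.09, 8.54 and 6.25, and at ZT18 they were 7.62, 7.17 and 7.28. At ZT6 they were 5.07, 6.99 and 7.41, and at ZT14 they were 5.02, 7.16, 6.13 and 6.63. In the order of the means (ZT22, ZT2, ZT18, ZT6, ZT14, ZT10) neighbours among these 4 times overlapped, and the lowest arrays at ZT6 and ZT14 were ones without high Tff3.

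The mean level of Chka was 9.33 ± 0.32 (SD, n = 4) at ZT22 and 3.91 ± 0.21 (SD, n = 4) at ZT10. The difference of ZT10 minus ZT22 was -5.43 ± 0.45 (SE), or 43-fold on the deposited values (adjusted p = 2.03e-08), and Chka was the only 1 of the 8 genes called there, against 3.30% of all features. The levels at ZT10 lie about the lower quartile of the arrays. Without detection calls, whether signal there stands above background cannot be told. Folds and spans that include ZT10 are therefore those of the deposited values and not exact ratios of transcript. The fitted rhythm had an amplitude of 2.23 ± 0.23 (SE), a 22.1-fold span from trough to peak, with the peak at ZT22.1 ± 0.416 h (adjusted p = 7.05e-07). When the 5 arrays of high Tff3 were left out, the span was 31.3-fold (adjusted p = 2.52e-09), and without the 4 arrays of ZT10 the span was 11.1-fold and the call stood (adjusted p = 0.00167). Chka also differed by 2.01 between ZT2 and ZT14 without those 5 arrays of high Tff3 (adjusted p = 0.0101), which leaves only ZT14a and ZT14c at ZT14. With all arrays the difference between ZT2 and ZT14 was 1.35 (adjusted p = 0.1). That difference was called as well when only ZT2d (1.80, adjusted p = 0.019) or only ZT6a (1.35, adjusted p = 0.0438) was left out. The mean level of the 4 sinusoidal endothelium markers moved in part with Chka, from 9.11 at ZT14 to 9.80 at ZT22, with 1 of the 4 called. In the 24 h test their fitted peaks were ZT23.3 for Stab2 (adjusted p = 0.0353), ZT22.2 for Clec4g (0.0574), ZT23.5 for Kdr (0.0589) and ZT18.8 for Lyve1 (0.717). The part of these markers in the result was not tested.

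Chkb, the second choline kinase, which also accepts ethanolamine (chromosome 15, 89426349 to 89429927), was highest at ZT2 and ZT6. At ZT2 its levels were 9.40, 9.43, 9.62 and 9.71, and at ZT14 they were 8.89, 8.32, 9.0 and 8.20. No array overlapped between these times, and ZT2 minus ZT14 was 0.94 ± 0.21 (SE), or 1.92-fold (adjusted p = 0.00793). At ZT6 the levels were 9.03, 9.72 and 8.99, at ZT18 they were 8.76, 8.43 and 7.99, and at ZT22 they were 8.90, 8.49, 8.96 and 8.98. At ZT10 they lay close together, at 8.68, 8.74, 8.66 and 8.76. ZT2 and ZT6 overlapped each other and both lay above all arrays of every other time except that 1 array of ZT14, at 9.0, passed the lowest of ZT6. The rhythm spanned 2.05-fold with its peak at ZT3.59 ± 0.673 h (adjusted p = 0.00174). The rhythm kept a 1.93-fold span without the 5 arrays of high Tff3 (adjusted p = 0.0294), but ZT2 minus ZT14 was 0.60 and not called (adjusted p = 0.21). That omission left only ZT14a and ZT14c at ZT14.

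Chka and Chkb were also the only 2 of the 8 genes called in the test of any difference among the 6 times (adjusted p = 5.08e-07 and 0.00822), against 6.14% of all features. Their within-array difference, which cancels anything that scales both genes in an array, had a 24 h profile whose ratio spanned 21.9-fold (permutation test, adjusted p = 1.75e-05 over 7 pairs of genes). This span, too, includes the level of Chka at ZT10, which lies about the lower quartile of the arrays. It was 12.5-fold without the 4 arrays of that time (permutation test, adjusted p = 0.00285). In that difference the 4 arrays of ZT10 lay below, and the 4 arrays of ZT22 above, those of all other times. The raw p of 1e-05 behind it is the smallest that 100000 permutations can give.

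Etnk1, ethanolamine kinase (chromosome 6, 143166866 to 143208546), opens the ethanolamine route. Its mean levels ran from 9.0 ± 0.40 (SD, n = 4, ZT10) up to 9.75 ± 0.24 (SD, n = 4, ZT14), and the arrays of these times met at 9.46. The rhythm was not called (amplitude 0.11 ± 0.12 (SE), adjusted p = 0.838). The within-array difference of Chka and Etnk1 spanned 24.6-fold (permutation test, adjusted p = 1.75e-05), and 18.5-fold without ZT10 (adjusted p = 7e-05), so these 2 kinases had unequal profiles.

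The promoters of Chka, Chkb and Chpt1 are shown because these are the rhythmic members with a single listed start site. The start site of the Chka promoter lies inside the gene span given above, so the positions hold for this start site. Which start site the liver uses was not tested. Each runs from 250 bases before to 50 after the RefSeq start site in GRCm38.p6, 5′ to 3′ on the gene's strand. Capitals mark CCAAT boxes (CCAAT, or ATTGG on the other strand) and the core motif of the cyclic AMP response element (TGACG, or CGTCA on the other strand).
Chka (chr19:3851523-3851822, plus strand): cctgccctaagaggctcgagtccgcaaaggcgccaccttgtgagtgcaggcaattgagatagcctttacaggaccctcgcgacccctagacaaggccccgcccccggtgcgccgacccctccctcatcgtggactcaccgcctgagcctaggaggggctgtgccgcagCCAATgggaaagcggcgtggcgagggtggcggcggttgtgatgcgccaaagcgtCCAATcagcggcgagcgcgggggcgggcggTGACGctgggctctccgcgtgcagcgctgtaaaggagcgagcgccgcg
Chkb (chr15:89429878-89430177, minus strand): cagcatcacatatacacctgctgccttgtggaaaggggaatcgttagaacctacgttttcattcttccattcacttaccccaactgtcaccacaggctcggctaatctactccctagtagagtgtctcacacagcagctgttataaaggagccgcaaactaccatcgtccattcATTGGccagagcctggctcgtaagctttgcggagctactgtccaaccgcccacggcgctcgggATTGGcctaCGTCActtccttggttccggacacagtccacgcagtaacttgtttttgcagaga
Chpt1 (chr10:88503921-88504220, minus strand): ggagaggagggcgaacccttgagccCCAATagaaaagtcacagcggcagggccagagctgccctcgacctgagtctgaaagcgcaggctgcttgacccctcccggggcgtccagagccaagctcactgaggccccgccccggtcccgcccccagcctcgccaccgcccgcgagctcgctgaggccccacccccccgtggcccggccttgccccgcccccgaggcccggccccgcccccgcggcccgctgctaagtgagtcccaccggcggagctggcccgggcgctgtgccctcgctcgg

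Chka has 2 CCAAT boxes, at -82 and -28 from its start site, and a TGACG at 3. Chkb likewise has 2, at -76 and -13, and a CGTCA at -4, while Chpt1 has 1 CCAAT box at -225 and lacks the second motif. On either strand, 37.4% of 32851 mouse promoters of this length hold CCAAT, and 20.8% of them hold TGACG. The E-box CACGTG bound by clock factors (7.15% of promoters), the related CACGTT (4.68%), the D-box TTATGTAA or TTACGTAA (1.06%), the nuclear receptor motif AGGTCA (16.3%) and the full element TGACGTCA, which contains TGACG (1.79%), were searched on both strands and are not in these 3 windows. Of the 8 genes 7 had a promoter in the table, with 12 windows. Both marked motifs also occur in other members: TGACG, on either strand, at 3 places in Etnk1 and 1 in Pcyt1a, and CCAAT at 1 place each in Cept1 and Pemt, of which Etnk1, Cept1 and Pemt were not called rhythmic. The other windows held CACGTT in Cept1, as AACGTG at 45 and at -133 of 2 overlapping windows, which is the same site, and AGGTCA in 1 window of Pcyt1a, as TGACCT at 19. The motifs were chosen after earlier results were known, and a match is a description of the letters only.

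Pcyt1a, the CTP:phosphocholine cytidylyl transferase that is usually the rate-limiting enzyme of the CDP-choline route (chromosome 16, 32430921 to 32475065), was highest at ZT18, where its levels were 11.08, 11.05 and 11.35. It was lowest at ZT6, at 10.54, 10.18 and 10.63. These 2 times did not overlap, but each overlapped its neighbour in the order. At ZT2 the levels were 10.32, 10.82, 10.76 and 10.59, and at ZT10 they were 11.14, 10.65, 10.24 and 10.72. At ZT14 they were 10.79, 11.01, 10.97 and 10.80, and at ZT22 they were 10.82, 10.82, 10.84 and 11.11. The dark-phase arrays thus kept to a narrower band than those of ZT10.

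The rhythm of Pcyt1a spanned 1.54-fold with its peak at ZT17.8 ± 0.877 h (adjusted p = 0.0327). It was not called without ZT2a (adjusted p = 0.0528), ZT6b (0.0845), ZT18a (0.0555), ZT18b (0.0533) or ZT18c (0.0911). Without the 5 arrays of high Tff3 the span was 1.52-fold and the call was lost (adjusted p = 0.135).

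Pcyt2, the cytidylyl transferase of the ethanolamine route (chromosome 11, 120610062 to 120617947), ranged from 13.99 to 14.78. Its highest mean was 14.41 ± 0.08 (SD, n = 3) at ZT6 and its lowest 14.19 ± 0.05 (SD, n = 4) at ZT10. The fitted rhythm spanned 1.05-fold and was not called (adjusted p = 0.959). All neighbours in the order of its means overlapped, and its highest arrays were those of high Tff3, at 14.78 (ZT14b), 14.66 (ZT14d) and 14.58 (ZT22a). The within-array difference of Pcyt1a and Pcyt2 had a 24 h profile with a 1.58-fold span of the ratio (permutation test, adjusted p = 0.019). It was no longer called without ZT6b (adjusted p = 0.0595), but was called without the 5 arrays of high Tff3 (adjusted p = 0.00849).

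Chpt1, choline phosphotransferase, catalyses the last step of the CDP-choline route (chromosome 10, 88469513 to 88503970). At ZT18 its levels were 14.32, 14.08 and 14.14, and at ZT6 they were 13.79, 12.71 and 12.57. The 2 low arrays of ZT6 are ones of high Tff3, and the third lies within the range of ZT22. At ZT2 the levels were 13.24, 13.39, 13.52 and 13.14, and at ZT10 they were 13.57, 13.61, 13.68 and 13.31. At ZT14 they were 13.85, 13.36, 13.97 and 13.22, and at ZT22 they were 13.68, 13.57, 13.82 and 14.51. All arrays of ZT18 lay above all arrays of every time other than ZT22.

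The rhythm of Chpt1 spanned 1.93-fold with its peak at ZT18.2 ± 0.806 h (adjusted p = 0.0176). It was lost without ZT6b (adjusted p = 0.0514) or ZT6c (adjusted p = 0.0538), and kept without all 5 arrays of high Tff3 (1.80-fold, adjusted p = 0.0399). Chpt1 was the only 1 of the 8 genes called between ZT6 and ZT18, where 1.13% of all features were called, with a difference of -1.16 ± 0.28 (SE), or 2.23-fold (adjusted p = 0.0395). It was not called without ZT6b (-1.0, adjusted p = 0.169), ZT6c (-0.93, 0.138), ZT18a (-1.09, 0.151), ZT18b (-1.21, 0.103) or ZT18c (-1.18, 0.113). Without the 5 arrays of high Tff3, which leaves 1 array at ZT6, it was -0.39 (adjusted p = 0.656). With ZT6a left out Chpt1 was called for any difference among the times (adjusted p = 0.00415), and with all arrays it was not (adjusted p = 0.0606), except among features above the median level (0.0338), with a trended robust prior (0.0224) or with array weights (0.0152).

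Cept1, which transfers both choline and ethanolamine headgroups (chromosome 3, 106502260 to 106547802), was highest at ZT2, at 11.94, 12.03, 11.90 and 12.08. At ZT14 its levels were 11.16, 11.22, 11.25 and 11.60, below every array of ZT2. The difference was 0.68 ± 0.17 (SE), or 1.60-fold (adjusted p = 0.0207), so that Cept1 and Chkb were the 2 of 8 genes called in that contrast, against 4.27% of all features. The Cept1 call was lost without ZT2b (0.67, adjusted p = 0.0504), ZT2d (0.65, 0.0574), ZT14a (0.63, 0.0516) or ZT14b (0.65, 0.0674). At the other 4 times its levels ran from 11.18 to 11.97. The 24 h rhythm, with a fitted span of 1.41-fold and a peak at ZT1.12, was not called (adjusted p = 0.0959). It was called without ZT22a (adjusted p = 0.0259), without ZT22b (0.049) and, with all arrays, among features above the median level (0.0477).

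The within-array difference of Chpt1 and Cept1 had a 24 h profile whose ratio spanned 2.25-fold, with its peak at ZT16.6 (permutation test, adjusted p = 0.00162). The adjusted p was 0.000882 without the 5 arrays of high Tff3. The ratio of Chpt1 to Cept1 was lowest at ZT2 and highest at ZT18, with a mean difference of 1.34 ± 0.23 (SD, n = 4) and 2.47 ± 0.24 (SD, n = 3), of which only the change over the day can be read. The 2 phosphotransferases thus had unequal profiles over the day.

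**Figure D2:**
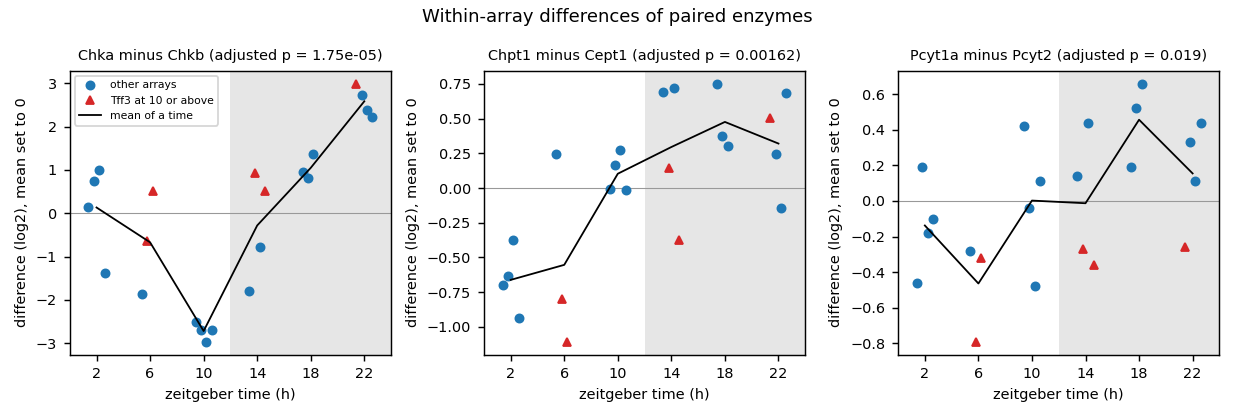
Within-array difference (log2) of Chka and Chkb, Chpt1 and Cept1, and Pcyt1a and Pcyt2 against zeitgeber time in hours, each set to a mean of 0, with the dark phase shaded; points are the 22 arrays, red triangles those of high Tff3, and lines join the means. The first pair has the widest span (21.9-fold), the second spans 2.25-fold and the third 1.58-fold, and the vertical axes differ.

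Pemt, the methyltransferase of the second route (chromosome 11, 59970614 to 60046561), ranged from 16.15 to 17.05. Its highest mean was 16.71 ± 0.05 (SD, n = 3) at ZT18 and its lowest 16.36 ± 0.20 (SD, n = 3) at ZT6. The rhythm spanned 1.21-fold and was not called (adjusted p = 0.46). The other 4 features named Pemt, which the array places on no chromosome, were not called either (adjusted p from 0.391 to 0.513), with fitted peaks from ZT17.3 to ZT18.5. The ratio of Chka to Pemt spanned 19.4-fold (permutation test, adjusted p = 1.75e-05) and that of Chka to Pcyt1a 18.8-fold (adjusted p = 1.75e-05). Without ZT10 these spans were 8.65-fold and 9.21-fold (permutation test, adjusted p = 0.00285 for both). Of the 7 pairs 6 were called in all, but those that include Chka share its rhythm and are not separate results. The ratio of Pcyt1a to Pemt, at 1.30-fold, was not called (permutation test, adjusted p = 0.0677). It was called in 5 of 22 omissions of an array: ZT2b (adjusted p = 0.0447), ZT2c (0.0415), ZT10a (0.0313), ZT10c (0.0248) and ZT14d (0.0311), and also without all of ZT10 (0.0244).

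Between the light and the dark phase, 4 of the 8 genes differed, against 5.27% of all features. Chkb was higher in the light, by 0.56 ± 0.13 (SE), or 1.47-fold (adjusted p = 0.00996). The neutrophil marker S100a9 was also higher in the light, by 0.58 ± 0.16 (SE) on the log2 scale (adjusted p = 0.0271), with a fitted peak at ZT4.77. The other measured marker of that list, S100a8, was not called (0.26 on that scale, adjusted p = 0.475). Its median of 3.38 lies below the lower quartiles of the arrays (3.67 to 3.91), so whether its signal stands above background cannot be told. The mean of both markers ran from 3.98 at ZT14 to 4.78 at ZT6, and their part in the result was not tested. Chka was higher in the dark by 3.13-fold (light minus dark -1.65 ± 0.28 (SE), adjusted p = 0.000635), Chpt1 by 1.51-fold (-0.60 ± 0.15 (SE), adjusted p = 0.0164) and Pcyt1a by 1.32-fold (-0.40 ± 0.11 (SE), adjusted p = 0.0341). Chka did not split evenly by phase: its mean at ZT2 (7.59) lay above those at ZT14 (6.235) and ZT18 (7.36). Its light mean includes ZT10, where levels lie about the lower quartile of the arrays, and omission of ZT10 was not run for this contrast. By ranks in limma the light and dark call of Chka was lost (adjusted p = 0.272). The median difference was -0.13 over the 8 genes, 0.01 over all features and -0.04 over the features above the median level. Without the 5 arrays of high Tff3 only the Chka call was kept (-1.85, adjusted p = 0.000561), and Chkb (0.38, adjusted p = 0.153), Chpt1 (-0.47, 0.0884) and Pcyt1a (-0.37, 0.19) were lost. The Pcyt1a call was also lost without ZT2a, ZT6b, ZT10b, ZT10c, ZT14b, ZT14c, ZT18a, ZT18c or ZT22d, with adjusted p values from 0.051 to 0.0849.

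Genes whose levels followed those of the rhythmic members most closely were sought among 9708 named genes above the median level. These correlations run over the 22 arrays, which share the 6 times of day, and are descriptions. For Chka the highest was Lgalsl, a galectin-like protein, with Pearson r = 0.973, Spearman rho = 0.965 and r = 0.969 without the 2 arrays farthest from the median of Chka. Tubb2a, a beta-tubulin (r = 0.926), Arntl, the clock factor BMAL1 (r = 0.913), Ptpn9 (r = 0.906) and Cldn1, a tight junction protein (r = 0.9), followed. Lgalsl had its lowest mean, 7.18 ± 0.41 (SD, n = 4), at ZT10 and its highest, 10.72 ± 0.16 (SD, n = 4), at ZT22, the same times as Chka. Arntl was likewise lowest at ZT10 (5.30 ± 0.51, SD, n = 4) and highest at ZT22 (10.55 ± 0.15, SD, n = 4). Over the 17 arrays without high Tff3 the 5 correlations were between 0.939 and 0.979.

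For Chkb the closest were Fgg (r = 0.849), Fga (r = 0.831), Pttg1 (r = 0.827), Fgb (r = 0.816) and Acp6 (r = 0.8). Of these, Fgg, Fga and Fgb encode the fibrinogen chains. Chpt1 was followed by Abhd6, a monoacylglycerol lipase (r = 0.863), Mme, the endopeptidase neprilysin (r = 0.844), Dhrs1 (r = 0.816), Bpifb2 (r = 0.815) and Blvrb (r = 0.814). For Pcyt1a the correlations were lower, from 0.761 for Gpd1l to 0.794 for Rpl31-ps12, a pseudogene whose signal may be that of its parent gene, with Nat8f5, Pus7 and Tedc2 between them. Over the 17 arrays the correlations were 0.747 to 0.908 for the genes of Chkb, 0.688 to 0.843 for those of Chpt1 and 0.697 to 0.743 for those of Pcyt1a. Without the 2 arrays farthest from the median of Pcyt1a these 5 fell to between 0.639 and 0.707.

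Around the 8 genes, 48 further genes of the pathway were listed in 7 groups and 44 were measured. Of the 44, 15 were called for a 24 h rhythm (34.1%), beside 7.62% of all features and 13.6% of the brighter ones, and the median amplitude of the 44 was 0.245. The lists were chosen with earlier results of these data known, so these shares are descriptions only. Without the 5 arrays of high Tff3, 13 were called, 12 of them among the 15, beside 5.88% of all features. Dmgdh, Pnpla6 and Pctp were lost and Gpam, an acyltransferase that opens glycerolipid synthesis, was gained. In the light and dark contrast 8 of the 44 were higher in the dark and 4 in the light. Of all 22206 features 721 were higher in the dark and 449 in the light, 5.27% in all, so the dark had more calls in both. The 4 higher in the light were Lpin2, Pnpla7, Gpcpd1 and Abcb4, all from the lists. Lpin2 and Abcb4 were not called for a rhythm, and the choice to name them here was made after their values were seen.

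Among 5 further enzymes of phosphatidylethanolamine and phosphatidylserine, Selenoi was called. It encodes an ethanolamine phosphotransferase, and its arrays measured 13.57 to 14.33 at ZT22 and 12.16 to 12.93 at ZT14, with no overlap. Its rhythm spanned 2.41-fold with a peak at ZT23.8 (adjusted p = 0.000255). Of 9 measured genes of choline entry and oxidation, 4 were called. Slc44a1, a choline transporter, measured 10.67 ± 0.39 (SD, n = 4) at ZT22 and 9.06 ± 0.39 (SD, n = 4) at ZT10, and its 2.74-fold fitted span peaked at ZT22.5 (adjusted p = 3.12e-05). Its highest and lowest times were those of Chka. Bhmt, which uses betaine from choline to methylate homocysteine, spanned 3.12-fold with a peak at ZT0.427 (adjusted p = 0.000906). Its paralog Bhmt2 (1.60-fold) and Dmgdh (1.69-fold), which breaks down dimethylglycine, both peaked at ZT20.3.

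Of 6 genes of diacylglycerol supply 2 were called. Lpin1, a phosphatidate phosphatase that makes the diacylglycerol used by Chpt1 and Cept1, measured 12.85 ± 0.83 (SD, n = 4) at ZT10 and 9.68 ± 0.23 (SD, n = 4) at ZT2. At ZT10, where Lpin1 was highest, Chka was lowest. Agpat2, which makes phosphatidate, was highest at ZT22 (16.21 ± 0.11, SD, n = 4) and lowest at ZT10 (14.61 ± 0.28, SD, n = 4). Of 4 measured genes of methyl supply for Pemt, Ahcy was called, the hydrolase that clears the S-adenosylhomocysteine left by methylation (1.57-fold, peak ZT17.9, adjusted p = 0.00441).

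Of 10 measured genes of breakdown and headgroup return 5 were called. Gpcpd1, which cleaves glycerophosphocholine, measured 10.94 ± 0.30 (SD, n = 4) at ZT10 and 7.95 ± 0.37 (SD, n = 3) at ZT18, a 4.87-fold fitted span (adjusted p = 0.000688). Gde1, a glycerophosphodiesterase, spanned 4.21-fold with a peak at ZT15.3 (adjusted p = 1.12e-07). Pld1, a phospholipase D that releases choline, spanned 2.75-fold with a peak at ZT0.393 (adjusted p = 0.000297). The lysophospholipases Pnpla6 and Pnpla7 peaked at different times, at ZT16.8 (2.18-fold) and ZT2.96 (1.94-fold). Lpcat1 was the 1 of 6 acyl remodelling genes called (1.60-fold, adjusted p = 0.0409), and Pctp, a phosphatidylcholine transfer protein, the 1 of 4 transport genes (1.62-fold, adjusted p = 0.0314).

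**Figure D3:**
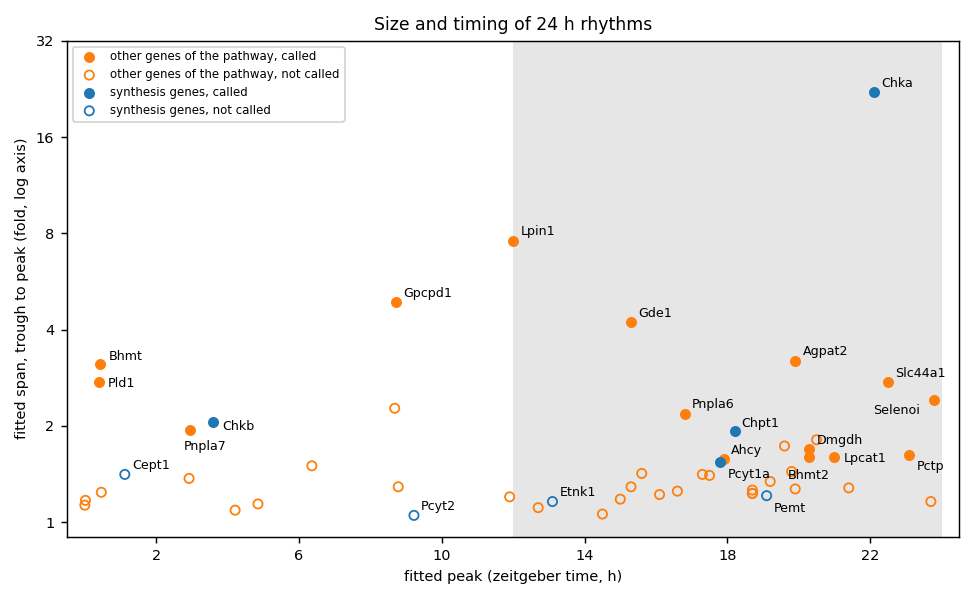
Fitted span from trough to peak (fold, log axis) against fitted peak time (zeitgeber time in hours, dark phase shaded) for the 8 synthesis genes (blue) and 44 further pathway genes (orange); filled circles passed the 24 h test and open ones did not. Chka, at 22.1-fold (11.1-fold without ZT10), lies above Lpin1 at 7.58-fold, the next highest of these genes.

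**Figure D4:**
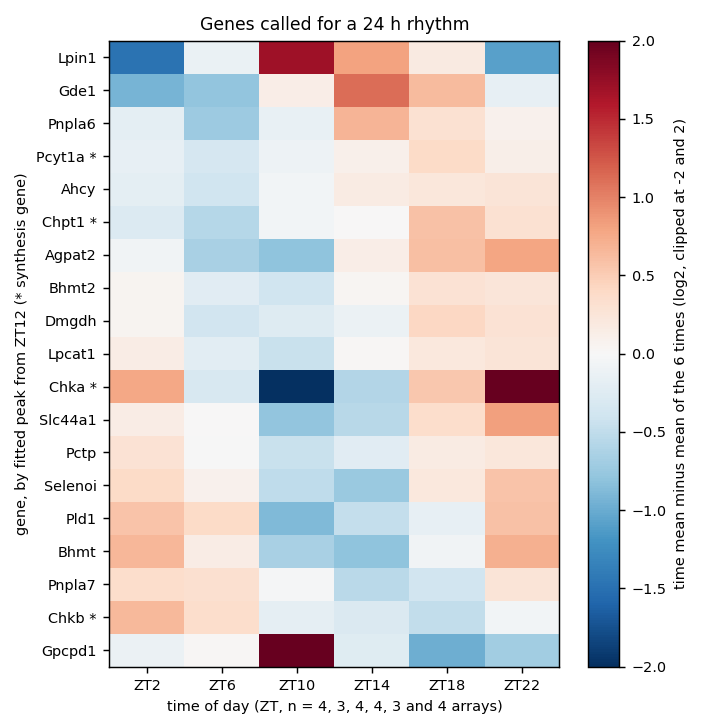
Mean of each time minus the mean of the 6 times (log2, colours clipped at -2 and 2) for the 19 genes called for a 24 h rhythm, 4 of them synthesis genes (starred), in order of the fitted peak from ZT12. Chka is low at ZT10 and high at ZT22, and Lpin1 and Gpcpd1 are high at ZT10.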

How the data were processed

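Liver RNA (TRIzol, 100 ng, WT Plus kit, per the labels' protocols) was hybridised to Clariom S arrays. The values deposited by the authors were read as log2 from their range. The sources used here do not give the log base, background correction, normalization, software or genome build. Quartiles of the arrays are nearly equal, so a scaling preceded deposit, and there are no detection calls. Gene names came from the platform annotation (19572 features with 1 symbol, 2634 with none, 0 with several), and all 19572 gene IDs were found in RefSeq's genes of GRCm38.p6. Promoters came from RefSeq.

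The models were lmFit and eBayes of limma 3.58.1 (R 4.3.3, with data.table in version 1.17.8) on all 22206 features, with no filter, Benjamini-Hochberg adjustment over all of them and a threshold of 0.05. For the 24 h rhythm, a cosine and a sine of that period were tested together by F. All other comparisons are contrasts of 6 time means, fitted over the 22 arrays. Fold spans are 2 raised to 2 amplitudes. Profiles of 2 genes were compared by a permutation test (100000 draws) of the 24 h F statistic on their within-array difference, adjusted over 7 pairs; an eighth, Etnk1 with Etnk2, could not be run. The fits were tested on simulated data.

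The members, gene lists, pairs and the omission of the 5 arrays of high Tff3 were chosen with earlier results of these data known. Named genes were all members, every rhythmic gene of the pathway lists, the 5 closest genes by Pearson r for each rhythmic member, and Tff3.

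Groups follow the labelled times. Each array was taken as 1 mouse, and p-values measure the spread between these arrays, 0 pairs of which were identical (correlations 0.9763 to 0.9939). The array letters were not taken to pair samples: deviations from the time means of same-letter arrays had a median correlation of 0.00278 (-0.236 to 0.226), over 0.1 in 3 of 51 pairs. Alternatives were quantile normalization, median centring, features above the median level, a trended robust prior, array weights, the letter as a block, ranks, a threshold of 0.01, no moderation, omission of the 5 arrays of high Tff3 and of each array, and, added after seeing the data, omission of ZT10 for the rhythm and the pairs.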

Additional observations from a re-analysis of the deposited data

Results flagged for a closer look

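In 32 sets of 4 arrays of 1 gene at 1 time, 3 held an array far from the others by Dixon's test; chance gives about 1 in 20. Chkb was 8.49 in ZT22b, where the nearest array was 8.90. Pcyt1a was 11.11 in ZT22d, where the nearest was 10.84, and Pemt was 17.05 in the same array, where the nearest was 16.62.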

How the results depend on the processing

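Of 1024 contrast values of single members under the alternatives, 261 were called there or with the deposited values as they stand, and 0 of these changed sign; 23 uncalled values did. Of 135 called rhythms 0 moved their peak by over 6 h. The rhythms of Chka and Chkb were called under every alternative run. Between ZT6 and ZT18 the call for Chpt1, the only member called there, was lost, leaving 0 members, with quantile normalization, with the replicate block (adjusted p = 0.054), without moderation (166 features) and without the 5 arrays of high Tff3 (59 features); among features above the median level there were 417 features and 3 members (Chkb, Pcyt1a and Chpt1). The replicate block also ended the Pcyt1a calls (adjusted p = 0.0552 for the rhythm and 0.0567 for light and dark), and the cause was not tested. By ranks in limma the 24 h rhythm gave 1065 features, with Chpt1 lost (adjusted p = 0.0795), and light and dark 603 features and 1 member (Pcyt1a). Ranks gave 0 features and 0 members for any difference (unadjusted p under 0.05 for 4481 features and 6 members), ZT2 minus ZT14 (3460 and 2), ZT6 minus ZT18 (2920 and 4) and ZT10 minus ZT22 (3508 and 1), where values without ranks gave 1363, 948, 252 and 733 features; the cause was not tested. A threshold of 0.01 left 830 features and 2 members for the rhythm, 668 features for any difference, 459 and 2 for light and dark, 471 and 1 for ZT2 minus ZT14, 81 and 0 for ZT6 minus ZT18, and 364 features for ZT10 minus ZT22. Without the 5 arrays, light and dark gave 617 features and 1 member, and ZT2 minus ZT14 514 features. Leaving out single arrays gave 2 to 5 members for the rhythm, with 2 without ZT6b (Chka and Chkb). It gave 589 to 1018 features and 1 to 3 members for ZT2 minus ZT14, lowest in features without ZT14b (589) and ZT14d (627), and 82 to 440 features and 0 to 1 members for ZT6 minus ZT18, with 440 without ZT6a, 82 without ZT6b, 106 without ZT18a, 87 without ZT18b and 91 without ZT18c. Without detection calls, whether levels near 3.67 to 3.91, such as that of Chka at ZT10, stand above background cannot be told.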
